A study of Mus musculus with 36 samples.

Results

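The tumour necrosis factor (TNF) superfamily comprises the TNF-like ligands and the receptors that bind them. The genes described here are the protein-coding rows of the gene expression table whose symbols begin with Tnfsf or Tnfrsf and a number, together with Tnf, Lta, Ltb, Ltbr, Fas, Fasl, Cd40, Cd40lg, Cd27, Cd70, Ngfr and Eda2r. This rule found 43 members among 56748 genes, 17 ligands and 26 receptors. The rule uses no expression value, although it was set with earlier results of these data known. Poly(A) RNA was sequenced from visceral white adipose tissue (visWAT, the epididymal depot) and liver of 18 male C57BL/6J mice, giving 36 libraries in 8 groups. Mlkl Adi-KO mice carried floxed Mlkl alleles and the Adipo-Cre transgene, which acts in mature adipocytes, so that other cells of the depot and the hepatocytes keep Mlkl. Wild-type (WT) mice were littermates with the same floxed alleles and no Cre. From 16 weeks of age the mice received a normal chow diet (NCD, 4 mice per genotype) or a high-fat diet (HFD, 5 mice per genotype) for 16 weeks. Both tissues of a mouse were sequenced, and mice are named below by their numbers. The comparisons ask how diet, loss of Mlkl in adipocytes and tissue relate to expression, and here they are read for the superfamily. MLKL is the executioner of necroptosis, a form of lytic cell death that can be started by TNF receptors.

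Most ligands of the family are made as trimeric membrane proteins, several of which can be shed, and they cluster receptors at the surface of the responding cell. Receptors with a death domain, such as TNFR1 (Tnfrsf1a), FAS and the TRAIL receptor (Tnfrsf10b), can assemble caspase-8 or RIPK1 and RIPK3 complexes. Receptors without one recruit TRAF adaptors directly, and NF-kappaB signalling can follow from receptors of both kinds, TNFR1 among them. Decoy receptors bind ligand without passing on the signal. In obese adipose tissue the family is known above all for TNF, which macrophages release and which opposes insulin action.

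The libraries held between 20875463 and 30322171 reads on genes. Values are FPKM, fragments scaled for gene length and library size, as deposited, and differences are given on the log2(FPKM + 1) scale, which understates the change of genes near or below 1 FPKM. Mlkl was 2.29, 3.91, 4.63 and 5.11 FPKM in visWAT of the WT mice on NCD and 4.58 to 6.28 on HFD, against 1.96 to 2.49 and 2.32 to 2.72 in the respective Mlkl Adi-KO groups. The value of 2.29 came from the library labelled WT mouse 182, which lay within the Mlkl Adi-KO range and therefore goes against its label. The visWAT library of WT mouse 183 stood apart, because 7 epididymis and seminal vesicle genes took 16.4% of its reads. These genes took 0.0236% of reads in WT NCD mouse 182 (318 FPKM), and summed to 79.0 FPKM in Mlkl Adi-KO NCD mouse 197. Counts of called members in comparisons that include the visWAT libraries of mice 182 and 183 are given with and without them. The counts of marker genes, signalling genes, members without overlap and members called with no filter are given only with them. In liver, WT mouse 182 had a macrophage marker sum of 124 FPKM against 35.9 to 46.1 FPKM in the other WT mice on NCD. Likewise HFD Mlkl Adi-KO mouse 152 had a liver macrophage sum of 117 FPKM against 34.1 to 50 FPKM in the others of its group, and a Kupffer cell marker sum of 75.2 FPKM against 21.9 to 39.8 FPKM. Hepatocyte markers summed to at least 41295 FPKM in every liver library and adipocyte markers to at least 3763 FPKM in every visWAT library. The adipocyte genes Plin1 and Adipoq reached 1.18 and 2.70 FPKM in liver of WT HFD mice. The hepatocyte gene Alb reached 459.6 FPKM in visWAT of HFD Mlkl Adi-KO mouse 156. These are bulk tissues, in which fewer cells of a type and less RNA per cell cannot be told apart.

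A few receptors made up most of the family's RNA. The table gives FPKM per gene length, so levels can be compared between genes. In visWAT of WT mice on NCD, Tnfrsf1a had the highest level of the 43 members (60.9 ± 6.78 FPKM, SD, n = 4), followed by Ltbr, the lymphotoxin beta receptor, at 31.0 ± 1.33 FPKM and Fas at 10.98 ± 2.04 FPKM. In liver of the same mice the order of the first 2 was turned, with Ltbr at 46.6 ± 3.15 FPKM and Tnfrsf1a at 40.9 ± 3.91 FPKM, and the ranges of the 2 genes overlapped there (44.0 to 51.1 and 37.3 to 46.3 FPKM). Summed over members, the 26 receptors reached 139 FPKM and the 17 ligands 11.5 FPKM in WT NCD visWAT, and 130.0 and 5.35 FPKM in WT NCD liver. Tnfsf12, which encodes TWEAK, held the highest ligand level in each of the 8 groups, from 2.78 FPKM in WT NCD liver to 17.7 FPKM in WT HFD visWAT.

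**Figure D1:**
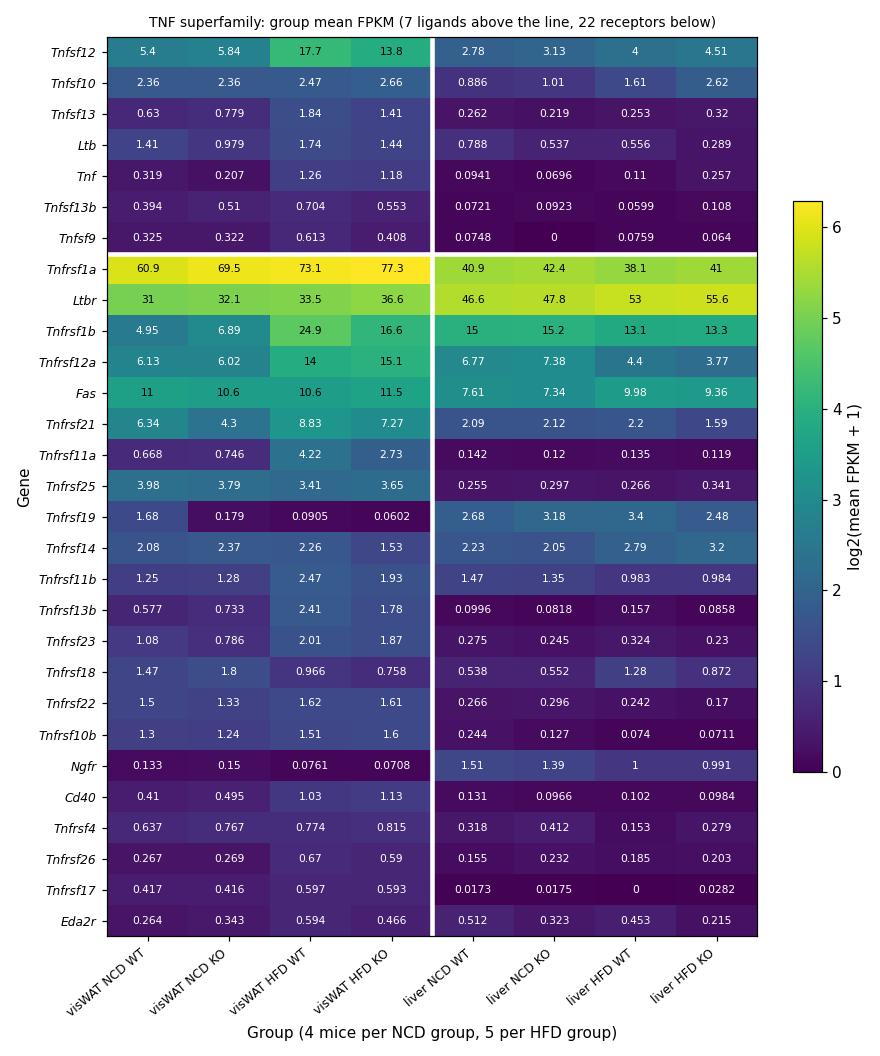
Mean FPKM of the 29 members that reached 0.5 FPKM in at least 1 group, printed in each cell, with colour for log2(mean FPKM + 1), genes as rows and the 8 groups as columns. Tnfrsf1a and Ltbr are the brightest rows in every group, Tnfrsf1b, Tnfrsf11a, Tnfrsf12a and Tnfsf12 brighten in HFD visWAT, and the Tnfrsf19 value of 1.68 FPKM in WT NCD visWAT rests on 1 library.

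Ligands were rare. Of 17 ligands, 7 reached a group mean of 0.5 FPKM somewhere (Tnfsf12, Tnfsf10, Tnfsf13, Ltb, Tnf, Tnfsf13b and Tnfsf9), against 22 of 26 receptors. The 14 members below 0.5 FPKM in all groups were the ligands Lta, Fasl, Cd40lg, Cd70, Tnfsf4, Tnfsf8, Tnfsf11, Tnfsf14, Tnfsf15 and Tnfsf18 and the receptors Cd27, Tnfrsf8, Tnfrsf9 and Tnfrsf13c. Many of these act between lymphocytes or antigen-presenting cells. Cd70 had 1 read and Tnfsf4 12 reads in all 36 libraries together, so at this depth no diet or genotype difference in them was detectable. Fasl, the ligand of FAS, had 112 reads, although Fas itself was above 6 FPKM in every library. Tnfsf11, which encodes RANKL, had 99 reads, while its receptor RANK (Tnfrsf11a) was among the members with the largest differences below.

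Several members are neighbours in the genome, and some share sequence with other transcripts. The deposited coordinates (mm39) place Tnf at chr17:35418357-35420983 on the minus strand, 1158 bases from Lta and 3061 bases from Ltb. Tnfrsf1b lies at chr4:144940033-144973440 (minus strand), 20267 bases from Tnfrsf8, and Tnfrsf11a at chr1:105708443-105775709 (plus strand). Tnfsf12 (chr11:69577076-69586675) and Tnfsf13 (chr11:69573672-69576610) are 466 bases apart on the minus strand, and both overlap the read-through gene Tnfsfm13, so reads could have been divided among the 3 genes and their values are uncertain to that extent. The decoy receptor genes Tnfrsf22, Tnfrsf23 and Tnfrsf26 are similar copies within 1 cluster on chromosome 7 and overlap E230032D23Rik on the other strand. Whether strand was used in counting was not given in the sources used here, and 15 of the 43 members overlap another gene.

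The promoters of 8 members that were called higher on HFD in WT visWAT are shown, all those of the 10 so called that have a window in the table. The windows are the 250 bases before the gene start, 5′ to 3′ on the gene's strand, from RefSeq on build GRCm38.p6, which is not the build of the expression table. Capitals mark matches to the AP-1 motif TGANTCA.
Tnfrsf1b, GRCm38.p6 chr4:145246871-145247120, minus strand: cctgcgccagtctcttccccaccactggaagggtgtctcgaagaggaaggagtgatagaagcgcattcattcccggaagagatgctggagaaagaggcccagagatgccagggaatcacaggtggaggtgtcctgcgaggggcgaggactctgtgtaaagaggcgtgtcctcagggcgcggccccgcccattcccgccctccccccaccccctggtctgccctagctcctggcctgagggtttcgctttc
Tnfrsf11a, GRCm38.p6 chr1:105780473-105780722, plus strand: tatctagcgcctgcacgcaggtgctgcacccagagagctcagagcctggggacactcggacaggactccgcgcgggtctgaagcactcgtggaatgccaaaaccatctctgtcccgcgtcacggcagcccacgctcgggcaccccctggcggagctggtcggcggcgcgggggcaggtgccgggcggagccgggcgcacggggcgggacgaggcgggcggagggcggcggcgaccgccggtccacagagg
Tnfrsf12a, GRCm38.p6 chr17:23677450-23677699, minus strand: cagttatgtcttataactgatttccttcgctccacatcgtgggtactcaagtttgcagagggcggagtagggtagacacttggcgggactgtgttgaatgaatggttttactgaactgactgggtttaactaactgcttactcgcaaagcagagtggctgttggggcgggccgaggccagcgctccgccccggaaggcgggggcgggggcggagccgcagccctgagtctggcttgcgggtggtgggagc
Tnfrsf13b, GRCm38.p6 chr11:61126505-61126754, plus strand: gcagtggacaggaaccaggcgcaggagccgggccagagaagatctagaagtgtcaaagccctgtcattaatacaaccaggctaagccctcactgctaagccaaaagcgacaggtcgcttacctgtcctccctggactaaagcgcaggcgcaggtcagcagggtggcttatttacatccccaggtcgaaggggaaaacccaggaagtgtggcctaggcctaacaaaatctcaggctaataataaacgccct
Tnfrsf23, GRCm38.p6 chr7:143685876-143686125, minus strand: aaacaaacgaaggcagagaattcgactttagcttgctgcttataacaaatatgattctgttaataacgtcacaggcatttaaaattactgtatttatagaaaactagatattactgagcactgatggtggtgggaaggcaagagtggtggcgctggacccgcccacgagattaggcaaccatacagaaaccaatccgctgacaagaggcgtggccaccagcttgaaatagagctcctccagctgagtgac
Tnf, GRCm38.p6 chr17:35202008-35202257, minus strand: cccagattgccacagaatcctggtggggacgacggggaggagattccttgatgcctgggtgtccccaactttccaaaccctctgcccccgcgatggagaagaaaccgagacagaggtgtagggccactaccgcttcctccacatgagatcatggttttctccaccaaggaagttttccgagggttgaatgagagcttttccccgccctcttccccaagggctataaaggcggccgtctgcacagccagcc
Tnfsf13, GRCm38.p6 chr11:69685555-69685804, minus strand: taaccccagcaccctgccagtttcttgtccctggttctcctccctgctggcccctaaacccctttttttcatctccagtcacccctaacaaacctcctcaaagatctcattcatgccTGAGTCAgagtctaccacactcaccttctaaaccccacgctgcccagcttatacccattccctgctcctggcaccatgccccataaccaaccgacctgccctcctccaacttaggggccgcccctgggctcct
Tnfsf13b, GRCm38.p6 chr8:10006383-10006632, plus strand: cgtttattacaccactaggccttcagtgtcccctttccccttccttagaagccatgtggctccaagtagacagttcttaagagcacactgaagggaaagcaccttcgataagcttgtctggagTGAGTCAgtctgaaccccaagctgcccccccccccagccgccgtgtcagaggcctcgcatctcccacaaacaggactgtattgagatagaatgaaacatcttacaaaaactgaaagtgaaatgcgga
Tnfsf13, which encodes APRIL, and Tnfsf13b, which encodes BAFF, are B cell survival factors, and their matches begin 133 and 127 bases before the start. Tnfsf13b has 2 windows in the RefSeq table, of which the one with the match is shown, a choice made after the matches were seen. The motifs searched on both strands were TGANTCA, the PU.1 motif GAGGAAGT and the kappaB consensus, and the other 6 windows shown held no match to any of them. A TGANTCA match occurred in 6 of the 33 members with a window (18.2%) against 7.82% of 27025 genes, a GAGGAAGT match in 1 (3.03%) against 2.79%, and a kappaB match in 4 (12.1%) against 8.23%. The kappaB matches were in Ltb, Tnfrsf8, Tnfrsf9 and Tnfrsf25, where those of Tnfrsf8 and Tnfrsf9 contained overlapping matches. No kappaB letters were found in these windows of Tnf, Tnfrsf1b or Tnfrsf11a, which says nothing of sites farther away. For 10 members, among them Tnfsf12 and Cd40, the table had no window.

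In WT visWAT, HFD went with higher expression of 10 members and lower expression of none. The members called were 6 receptors (Tnfrsf1b, Tnfrsf11a, Tnfrsf12a, Tnfrsf13b, Tnfrsf23 and Cd40) and 4 ligands (Tnfsf12, Tnfsf13, Tnfsf13b and Tnf). The test was limma across all genes, with Benjamini-Hochberg adjustment and a threshold of 0.05. Of 43 members, 25 passed the filter of a mean of 0.5 FPKM over the libraries compared, so that 10 of 25 were called, where 37.8% of all 14161 genes tested were called 21.9% higher and 15.8% lower. Tnf, Cd40 and Tnfsf13b had NCD means below 0.5 FPKM and passed only through their HFD values. Without a filter, 12 of 43 members were called, all higher, beside 17.9% of genes. The median difference of the tested members was 0.26, against -0.01 for all genes. In 11 members the 5 HFD mice all lay above the 4 NCD mice, and in none all below, which held for 19.6% and 13.8% of all genes.

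The largest difference was that of Tnfrsf1b, which encodes TNFR2, the TNF receptor without a death domain. Its levels were 6.24, 4.31, 4.52 and 4.72 FPKM in NCD mice 165, 180, 182 and 183 and 21.6, 26.9, 27.2, 23.4 and 25.3 FPKM in the HFD mice. Every HFD mouse was far above every NCD mouse. The mean was 5.03-fold higher, with a difference of 2.13 (SE 0.11, adjusted p = 8.88e-07 by limma, exact permutation p = 0.0159, two-sided, the smallest that 5 against 4 mice allow). Tnfrsf1a, the death domain receptor for the same ligand, changed little by comparison. It was at 66.2, 67.3, 54.6 and 55.5 FPKM on NCD and 67.7, 79.8, 71.9, 70.8 and 75.3 FPKM on HFD, and the groups did not overlap. Its difference of 0.26 (SE 0.10) did not pass the adjusted test (limma, adjusted p = 0.0552), although DESeq2, which called 44.4% of all genes, called it at 0.23 (adjusted p = 0.0258), and it was 0.13 (adjusted p = 0.207) without mice 182 and 183.

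Tnf itself was low. Its levels were 0.257, 0.314, 0.405 and 0.299 FPKM on NCD, which rest on 15 to 18 reads per library, and 1.17, 1.64, 1.09, 1.30 and 1.09 FPKM on HFD, from 56 to 80 reads. The groups were well separated, the mean was 3.94-fold higher on HFD, and the difference was 0.77 (SE 0.09, limma adjusted p = 0.000124). The other ligand of note, Tnfsf12 (TWEAK), was at 6.88, 5.54, 3.61 and 5.56 FPKM on NCD and 13.7, 20.7, 20.9, 17.2 and 16.2 FPKM on HFD. It rose by 1.56 (SE 0.17, limma adjusted p = 9.61e-05) without overlap. Its receptor FN14 (Tnfrsf12a) rose as well, by 1.11 (SE 0.23, limma adjusted p = 0.00493), from 5.85, 4.57, 9.84 and 4.26 FPKM to 13.5, 19.1, 12.8, 9.94 and 14.7 FPKM, where NCD mouse 182 came close to the lowest HFD mouse. Ligand and receptor of the TWEAK pair were thus both called higher.

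The RANK gene Tnfrsf11a, known from osteoclasts and dendritic cells, had the largest ratio of means among these members, 6.31-fold. It was at 0.624, 0.676, 0.555 and 0.818 FPKM on NCD and at 3.24, 4.95, 4.86, 3.82 and 4.22 FPKM on HFD, a difference of 1.64 (SE 0.11, limma adjusted p = 3.69e-06) with no overlap. Tnfrsf13b, which encodes TACI, a receptor for BAFF and APRIL, was at 0.443 to 0.793 FPKM on NCD and 1.95 to 2.75 FPKM on HFD (difference 1.11, SE 0.10, limma adjusted p = 2.78e-05). Its 2 ligands differed less. Tnfsf13 (APRIL) was higher by 0.81 (SE 0.12, limma adjusted p = 0.000592) and Tnfsf13b (BAFF) by 0.29 (SE 0.07, limma adjusted p = 0.0136). The costimulatory receptor Cd40 was at 0.249 to 0.498 FPKM on NCD and 0.794 to 1.14 FPKM on HFD, and the decoy gene Tnfrsf23 at 0.618 to 1.84 and 1.67 to 2.50 FPKM, where the 1.84 FPKM of mouse 182 overlapped the HFD mice. The call of Tnfrsf23 was lost without NCD mouse 165 or 180 (adjusted p = 0.0514 and 0.0532).

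None of the 5 death domain receptors tested (Tnfrsf1a, Fas, Tnfrsf10b, Tnfrsf21 and Tnfrsf25) was called in WT visWAT with all mice, whereas Tnfrsf21 was called higher and Fas lower without mice 182 and 183. Fas was at 13.0, 11.8, 8.22 and 10.9 FPKM on NCD and 10.6, 10.2, 10.2, 11.6 and 10.3 FPKM on HFD, with the HFD values inside the NCD range (difference -0.03, 95% interval -0.29 to 0.22). The TRAIL receptor Tnfrsf10b was at 1.29, 1.41, 1.65 and 0.838 FPKM on NCD and 1.43, 1.60, 1.26, 1.57 and 1.69 FPKM on HFD (difference 0.14, 95% interval -0.10 to 0.38). Its ligand Tnfsf10 (TRAIL) was at 2.80, 3.62, 1.44 and 1.57 FPKM and 2.45, 1.59, 2.40, 2.64 and 3.25 FPKM (difference 0.08, 95% interval -0.39 to 0.55). In these last 3 genes the NCD and HFD mice overlapped.

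**Figure D2:**
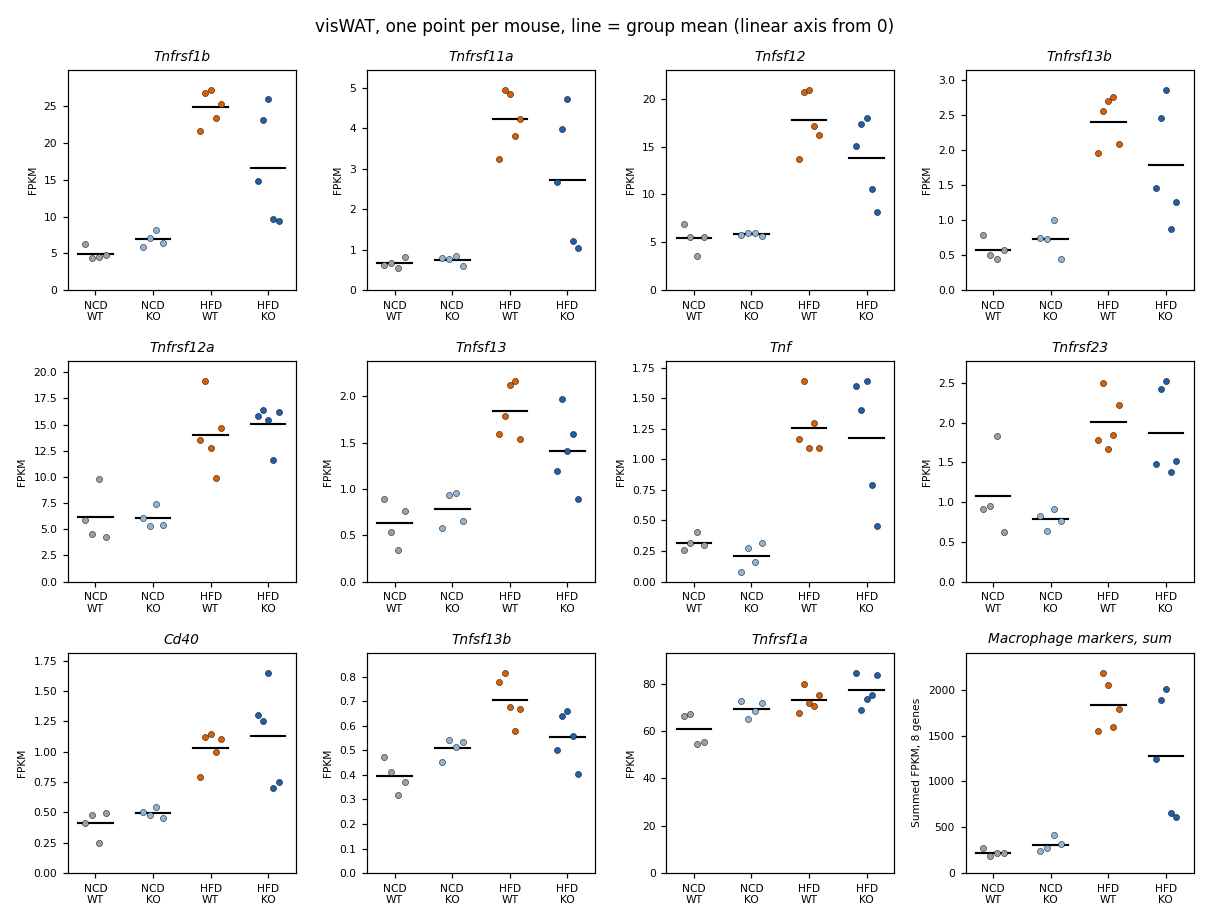
FPKM in visWAT of each mouse (points) and the group mean (line) for the 10 members called higher on HFD in WT mice, for Tnfrsf1a, and for the summed FPKM of 8 macrophage markers, on linear axes from 0 with 1 panel per gene. HFD means lie above NCD means of the same genotype in every panel, and Mlkl Adi-KO mice 156 and 157, the last 2 points of the HFD KO column, are low in both Tnfrsf1b (9.72 and 9.35 FPKM) and the macrophage sum (652 and 608 FPKM).

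Macrophage markers moved with these members. Of 8 macrophage markers (Adgre1, Cd68, Csf1r, Itgax, Trem2, Mertk, Cd14 and Lyz2), 7 were called higher and none lower in WT visWAT, and none was at 0 in any visWAT group. Their summed level ranged from 184 to 278 FPKM on NCD and from 1550 to 2185 FPKM on HFD. Of the fibroblast and progenitor markers, 3 of 4 were called higher, with sums of 27.6 to 50.9 FPKM and 125 to 153 FPKM. Of 5 adipocyte markers, 2 were called lower, with means from 402 to 233 FPKM for Plin1 and from 1405 to 911 FPKM for Adipoq, and Lep was called higher (137 to 602 FPKM). Among endothelial and hepatocyte markers, 1 of 4 each was called lower. In the hepatocyte list Cyp2e1 fell from a mean of 1158 to 66.7 FPKM. Alb had means of 11.7 FPKM on NCD and 12.6 FPKM on HFD, the latter over a range of 0.344 to 53.2 FPKM. No tested T cell (2 of 7) or B cell (3 of 4) marker was called in WT visWAT. The part of these cell types in the members' differences was not tested.

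The library of mouse 182 and that of mouse 183 mattered for the count. Without both, 16 of 27 members tested were called in WT visWAT, 15 higher and 1 lower, where 52.1% of all genes were called. The 10 members above were all among them, with Tnfrsf1b at 2.06, Tnf at 0.81 and Tnfsf12 at 1.37. Those added were Tnfrsf21 (0.72), Tnfrsf11b (0.94), Tnfsf9 (0.38), Tnfrsf26 (0.36) and Eda2r (0.33) as higher and Fas (-0.21, limma adjusted p = 0.0356) as lower. The fit without both mice used 7 libraries, 5 of them on HFD. Tnfsf9, Tnfrsf26 and Eda2r did not pass the filter with all mice. Their all-mouse NCD means were 0.325, 0.267 and 0.264 FPKM, against 0.613, 0.67 and 0.594 FPKM on HFD. They were tested here, where the HFD values weighed more in the filter mean. With all mice, Tnfrsf21, which encodes the death receptor DR6, was at 4.37, 5.59, 3.98 and 11.4 FPKM on NCD, the last in mouse 183, against 8.19 to 9.66 FPKM on HFD. Tnfrsf19, which encodes TROY, was at 6.31 FPKM in mouse 183 and at 0.0407 to 0.202 FPKM in the other WT NCD mice, so its group mean in visWAT is that of 1 library.

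The scale of the values also mattered, though not for the direction of these 10. When each library was rescaled to the same total, the median difference of all genes moved to 0.42 and 3805 genes were called higher and 227 lower, in place of 3108 and 2239. FPKM totals were 243503, 269807, 309820 and 564718 in NCD mice 165, 180, 182 and 183 and 227793 to 241374 in the HFD mice. In mouse 183, 238510 FPKM were from epididymis and seminal vesicle genes. Equal totals therefore lowered all its other genes, here and in every other comparison that used WT NCD visWAT. On that scale 12 members were called, again all higher, with a median of 0.74 over the 25 tested.

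In Mlkl Adi-KO visWAT more members were again called higher than lower on HFD. Of 24 members tested, 11 were called higher and 1 lower, beside 43.7% of all 14026 genes called, 23.3% higher and 20.3% lower. Tnf and Cd40 had NCD means of 0.207 and 0.495 FPKM and passed the filter only through their HFD values. Without a filter, 9 of 42 members were called higher and 3 lower, beside 19.1% of genes, and Tnfrsf11a, Tnfrsf13b and Tnfrsf10b lost their calls. The members' median difference was 0.25 against 0.01 for all genes. Of the 10 members higher in WT mice, 9 (90%) were higher here too, and they were 81.8% of the 11, whereas Tnfsf13b (0.04, SE 0.07) was not called here. How often calls repeated in both genotypes over all genes was not counted, so these shares cannot be read as particular to the family. In 8 members every HFD mouse lay above every NCD mouse and in 1 below, which held for 20.1% and 18.3% of all genes. The 2 comparisons share no mice. Whether the diet difference itself varied with genotype is given further on.

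Tnfrsf12a (FN14) had the largest difference among Mlkl Adi-KO mice. It was at 6.08, 5.27, 7.36 and 5.38 FPKM on NCD and 15.8, 16.3, 15.4, 11.6 and 16.2 FPKM on HFD, with no overlap (difference 1.19, SE 0.12, limma adjusted p = 0.000258). Tnfrsf1b was at 5.92, 7.04, 8.19 and 6.43 FPKM on NCD and 14.8, 23.2, 26.0, 9.72 and 9.35 FPKM on HFD (difference 1.05, SE 0.29, limma adjusted p = 0.0178). The groups did not overlap, but the HFD mice spread from 9.35 to 26.0 FPKM, where the WT mice had spread from 21.6 to 27.2 FPKM. Tnfsf12 differed by 1.06 (SE 0.20, limma adjusted p = 0.00345) and Tnfrsf11a by 0.98 (SE 0.30, limma adjusted p = 0.0268), also without overlap. The calls of Tnfrsf11a and Tnfrsf13b each held in 8 of 15 alternative settings, with adjusted p up to 0.0650 and 0.0915. The call of Tnfrsf11a was lost without NCD mouse 166, 179, 197 or 199 or HFD mouse 151 or 152, and that of Tnfrsf13b without NCD mouse 166, 179 or 199 or HFD mouse 151, 152 or 153.

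Tnf was at 0.0745, 0.278, 0.161 and 0.316 FPKM in Mlkl Adi-KO mice on NCD and 1.60, 1.4, 1.64, 0.786 and 0.456 FPKM on HFD (difference 0.82, SE 0.18, limma adjusted p = 0.00666). Tnfrsf23 and Tnfrsf21 were higher by 0.66 (SE 0.13) and 0.62 (SE 0.15), with limma adjusted p = 0.00421 and 0.0107. The one member called lower was Tnfrsf18, which encodes GITR, a receptor of regulatory T cells. It fell from 1.48, 2.01, 1.89 and 1.83 FPKM to 0.739, 0.880, 0.600, 1.0 and 0.572 FPKM with no overlap (difference -0.68, SE 0.09, limma adjusted p = 0.000792). In WT visWAT the same gene was at 0.848 to 2.32 and 0.586 to 1.64 FPKM, and the groups overlapped (difference -0.32, limma adjusted p = 0.240).

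Among the other death receptors, Tnfrsf10b was higher on HFD in Mlkl Adi-KO visWAT by a small step, from 1.01 to 1.45 FPKM on NCD to 1.47 to 1.92 FPKM on HFD. Its difference was 0.22 (SE 0.08, limma adjusted p = 0.0478), and the call was lost in 12 of 15 alternative settings, 8 of them without 1 library. Fas (difference 0.11, limma adjusted p = 0.383), Tnfrsf1a (0.15, adjusted p = 0.152) and Tnfsf10 (0.13, adjusted p = 0.328) did not pass. The macrophage marker sum was 238 to 410 FPKM in these mice on NCD and 608 to 2004 FPKM on HFD, with 6 of 8 markers called higher and 1 lower. Mertk was the macrophage marker with a lower mean on HFD (8.86 to 5.41 FPKM). Of the B cell markers tested, 2 of 3 were called higher (Cd79b, 0.73, and Cd79a, 0.88), with sums of 1.48 to 2.91 FPKM on NCD and 3.05 to 11.2 FPKM on HFD. Of the T cell markers tested, 1 of 2 was called higher (sums of 2.39 to 4.16 and 3.14 to 6.38 FPKM), and of the fibroblast and progenitor markers 2 of 4 (36.0 to 45.9 and 58.0 to 181 FPKM). Of the 5 adipocyte markers, 2 were called higher and 1 lower. Called lower were also 1 of 4 endothelial, 1 of 4 hepatocyte and 1 of 3 mesothelium markers. The part of these cell types in the members' differences was not tested.

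Genes that carry the signal behind the receptors were read from a list of 44 TRAF adaptors, NF-kappaB and death pathway genes, which was drawn up with earlier results of these data known. In WT visWAT, 22 of the 44 were called higher and 3 lower on HFD, beside 21.9% and 15.8% of all genes, with a median difference of 0.23 against -0.01 for all genes (rescaled to equal totals, 22 and 0). The 4 with the largest differences were Tnip1 (1.01, SE 0.07), an inhibitor of NF-kappaB signalling, Nfkbie (0.94, SE 0.11), an IkappaB gene, Ripk3 (0.90, SE 0.08), the kinase that phosphorylates MLKL, and Adam17 (0.78, SE 0.08), the protease that sheds TNF and TNFR2. In Mlkl Adi-KO visWAT, 16 were called higher and 10 lower, beside 23.3% and 20.3% of all genes, with a median of 0.10 against 0.01. Here Ripk3 (0.82, SE 0.19), Tnip1 (0.80, SE 0.09) and Nfkbie (0.71, SE 0.15) were higher and Tab3 (-0.72, SE 0.10), which encodes an adaptor of the kinase TAK1, was lower. Limma adjusted p-values of the named genes ranged from 7.80e-06 to 0.00692.

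In liver fewer members passed the filter, and the share of them called was near that of all genes. In WT liver 14 of 43 members passed the filter, of which 3 were called higher and none lower, beside 25.3% of 13330 genes called, 13.2% higher and 12.1% lower. In 2 members all HFD mice lay above all NCD mice and in none below, against 13.3% and 11.6% of all genes. The median difference was 0.11 against -0.001 for all genes. The 3 were Fas, Tnfsf10 and Tnfrsf18, and none of them was among the 10 called higher in WT visWAT. Of those 10, only Tnfrsf1b, Tnfrsf12a and Tnfsf12 passed the filter in WT liver, so the others could not be called there. Fas was at 7.65, 6.60, 8.66 and 7.52 FPKM on NCD and 11, 9.78, 9.81, 9.27 and 10.1 FPKM on HFD, so that every HFD mouse was above every NCD mouse (difference 0.35, SE 0.07, limma adjusted p = 0.00773). Tnfsf10 (TRAIL) was at 0.907, 1.04, 0.770 and 0.825 FPKM and at 1.14, 2.06, 1.44, 1.77 and 1.64 FPKM, also apart (difference 0.46, SE 0.11, limma adjusted p = 0.0124). Tnfrsf18 was at 0.317, 0.771, 0.285 and 0.777 FPKM and at 1.21, 0.735, 1.27, 1.81 and 1.36 FPKM with an overlap (difference 0.57, SE 0.16, limma adjusted p = 0.0273). The call of Tnfrsf18 held in 7 of 14 alternative settings and was lost without NCD mouse 165 or 182 or HFD mouse 154, 161, 162 or 164, at an adjusted p of up to 0.0733.

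Leaving out the liver of mouse 182 ended the call of Tnfrsf18 (0.49, adjusted p = 0.0539) and added Tnfrsf11b, the soluble RANKL decoy osteoprotegerin, as lower (-0.38, adjusted p = 0.0474), while Fas (0.41) and Tnfsf10 (0.43) were still called. Tnfrsf1b moved to -0.37 without this library (adjusted p = 0.0694). Levels in Mlkl Adi-KO liver gave 2 members higher and 1 lower of 13 tested, beside 22.2% of 13149 genes called, 11.9% higher and 10.3% lower. Groups did not overlap in 2 members, both higher, where 11.6% of all genes were higher and 9.89% lower in that way. After rescaling to equal totals, 1 was higher and 1 lower. The members' median difference was -0.04 against 0.0026 for all genes. Tnfsf10 was again higher, from 0.943, 1.12, 1.03 and 0.936 FPKM to 1.93, 2.75, 1.74, 2.92 and 3.75 FPKM without overlap (difference 0.82, SE 0.15, limma adjusted p = 0.00464), and was the member called in both genotypes. Without the liver of mouse 152 the same number of members was called, with Tnfsf10 at 0.80, Tnfrsf12a at -0.79 and Ltbr at 0.22 (limma adjusted p = 0.0108, 0.0241 and 0.0475).

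Ltbr, which serves the lymphotoxins and LIGHT, was higher in Mlkl Adi-KO liver on HFD by 0.21 (SE 0.06, limma adjusted p = 0.0346), from 44.0 to 52.1 FPKM to 53.2 to 58.2 FPKM. The call of Ltbr held in 8 of 15 alternative settings (adjusted p up to 0.0802) and was lost without NCD mouse 166, 179 or 199, without HFD mouse 151, 153 or 157, and with equal totals. Tnfrsf12a moved in the opposite direction to visWAT. It was at 7.34, 4.13, 9.49 and 8.55 FPKM on NCD and 4.15, 4.07, 3.76, 3.36 and 3.51 FPKM on HFD, and 1 NCD mouse (4.13 FPKM) lay within the HFD range (difference -0.77, SE 0.18, limma adjusted p = 0.0149). In WT liver the gene was at 4.47, 5.69, 12.3 and 4.61 FPKM and at 3.91 to 5.01 FPKM (difference -0.42, limma adjusted p = 0.223), where the 12.3 FPKM belonged to mouse 182. Tnfrsf1b did not differ detectably with diet in liver, at 8.90 to 17.7 and 10.1 to 15.9 FPKM in WT mice (difference -0.16, 95% interval -0.61 to 0.30, limma adjusted p = 0.619). Tnf rested on 1 to 16 reads per liver library and did not pass the filter.

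**Figure D3:**
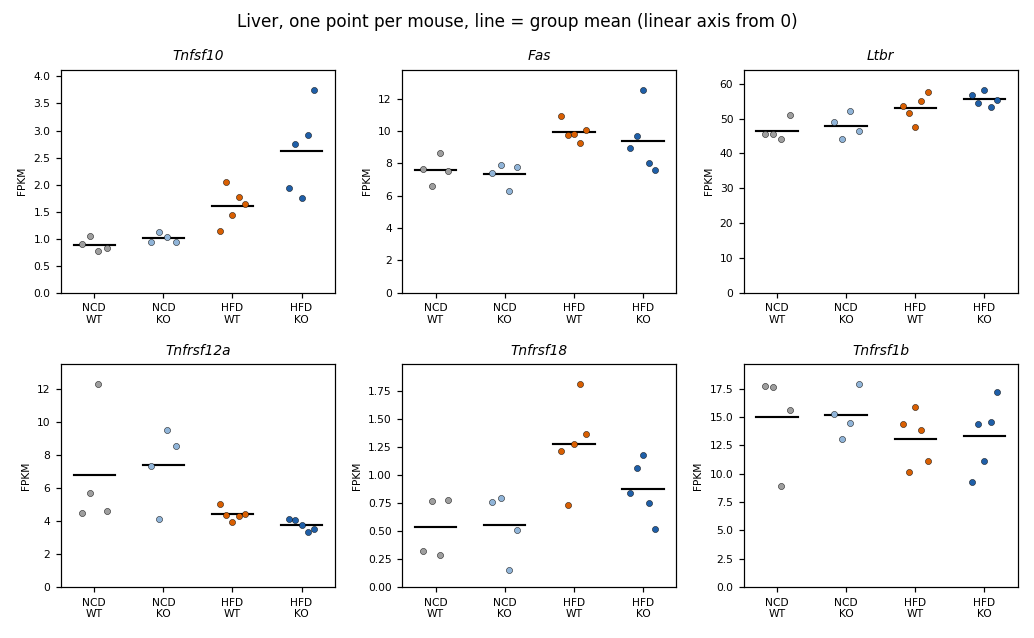
FPKM in liver of each mouse (points) and the group mean (line) for Tnfsf10, Fas, Ltbr, Tnfrsf12a, Tnfrsf18 and Tnfrsf1b, on linear axes from 0. Tnfsf10 stands at 0.770 to 1.12 FPKM in all NCD mice and at 1.14 to 3.75 FPKM in all HFD mice, while Tnfrsf12a of HFD mice lies between 3.36 and 5.01 FPKM, below most NCD mice.

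Fewer macrophage markers were called in liver than in visWAT. In WT liver 1 of 7 tested macrophage markers and 1 of 3 Kupffer cell markers were called higher, and the macrophage sum was 35.9 to 124 FPKM on NCD and 45.2 to 65.6 FPKM on HFD. The 124 FPKM belonged to mouse 182, and the other WT mice on NCD were at 35.9 to 46.1 FPKM. In Mlkl Adi-KO liver 1 of 6 tested macrophage markers was called higher and no Kupffer cell marker was called. Of the 44 signalling genes, 42 were tested in liver. In WT liver 6 were called higher and 5 lower, beside 13.2% and 12.1% of all genes, with a median of 0.02 (rescaled to equal totals, 7 and 2). Among them Cflar, which encodes the caspase-8 inhibitor FLIP, was lower (-0.38, SE 0.07), and Casp8 (0.39, SE 0.09) and Tank (0.36, SE 0.09) were higher. In Mlkl Adi-KO liver 10 were called higher and 3 lower, beside 11.9% and 10.3% of all genes, with a median of 0.11, and the higher ones included Traf5 (0.45, SE 0.09), Fadd (0.43, SE 0.06) and Birc2 (0.35, SE 0.07). Limma adjusted p-values of these 6 genes ranged from 0.00159 to 0.0177.

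A direct test of the difference between tissues was made in WT mice with a tissue by diet term, a positive value meaning a larger HFD minus NCD difference in visWAT than in liver. Of 21 members tested, 9 had a positive and 2 a negative term past the threshold, beside 40% of 14746 genes, 21.8% positive and 18.2% negative. After rescaling to equal totals, which moved the median of all genes to 0.39, 10 were positive and none negative, and edgeR on the reads, which called 35.3% of genes, gave 5 and 3, and did not call Tnfrsf13b, Tnfrsf11b, Tnfrsf1a or Tnfrsf23. Without the visWAT of mice 182 and 183, 8 were positive and 3 negative (47.0% of genes), and with the mouse as a block 7 and 1 (36.4% of genes). Tnfrsf1b had a term of 2.28 (SE 0.24), Tnfrsf11a 1.64 (SE 0.15), Tnfrsf12a 1.53 (SE 0.35), Tnfsf12 1.18 (SE 0.23), Tnfrsf13b 1.04 (SE 0.14), Tnfrsf11b 0.97 (SE 0.33), Tnfsf13 0.81 (SE 0.16), Tnfrsf23 0.50 (SE 0.18) and Tnfrsf1a 0.36 (SE 0.12). The 2 negative terms were those of Tnfrsf18 (-0.88, SE 0.26) and Fas (-0.39, SE 0.14). Limma adjusted p-values of the 11 ranged from 2.75e-07 to 0.0387. Tnfrsf11a, Tnfrsf13b, Tnfsf13 and Tnfrsf23 had liver means of at most 0.324 FPKM on both diets and passed the filter only through visWAT, and at such levels the log2(FPKM + 1) scale leaves little room for a difference in liver. Without a filter, 11 of 43 members had a positive and 2 a negative term, beside 19.7% of genes. The term of Fas compares a difference of -0.03 in visWAT with 0.35 in liver.

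**Figure D4:**
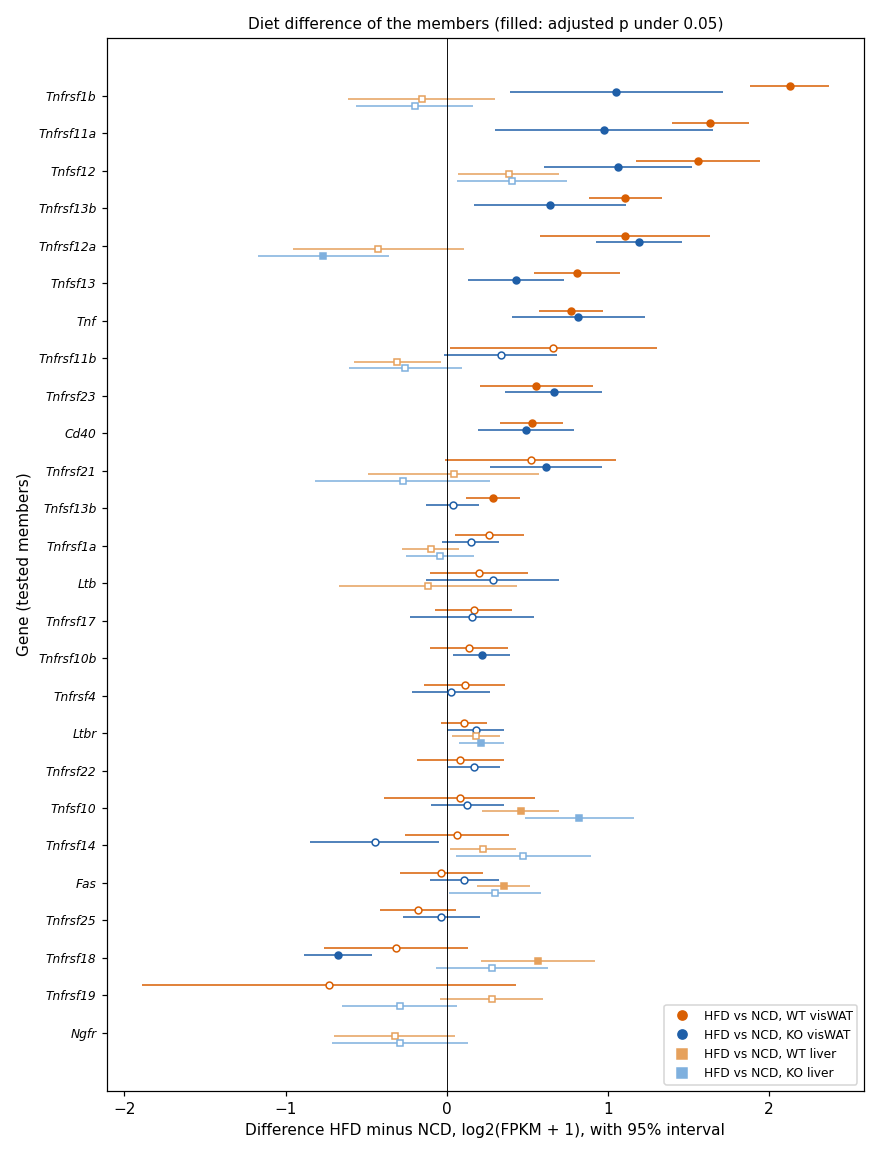
HFD minus NCD difference on the log2(FPKM + 1) scale (x axis) with its 95% interval for each tested member (y axis) in WT and Mlkl Adi-KO visWAT (circles) and liver (squares), filled where the adjusted p is under 0.05. The upper genes, from Tnfrsf1b at 2.13 downward, lie to the right of 0 in visWAT of both genotypes, whereas Tnfrsf12a lies to the left in liver and Tnfsf10 to the right in liver.

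On NCD the tissues differed in most tested members, as they did in most genes. Between visWAT and liver of the 4 WT mice, 13 of 18 members tested were called, 10 higher in visWAT and 3 higher in liver, beside 65.5% of 14544 genes called, 31.5% higher and 34.0% lower in visWAT. Tnfrsf25, Tnfrsf10b, Tnfrsf22 and Tnfrsf23, with liver means of 0.244 to 0.275 FPKM, and Ngfr, with a visWAT mean of 0.133 FPKM, passed the filter only through the tissue in which they were high. Without a filter, 24 of 41 members were called, 21 higher and 3 lower in visWAT, beside 39.5% of genes. The median difference of the tested members was 0.53 against -0.03 for all genes. Rescaling moved the median of all genes to 0.52 and gave 11 and 2 members. Tnfrsf25, which encodes DR3, was at 4.65, 3.98, 3.97 and 3.31 FPKM in visWAT and 0.212, 0.0704, 0.47 and 0.272 FPKM in liver (difference 1.99, SE 0.12). Tnfrsf1b went the other way, at 4.31 to 6.24 FPKM in visWAT and 17.7, 17.6, 8.90 and 15.6 FPKM in liver (difference -1.39, SE 0.21). The neurotrophin receptor Ngfr was at 0.0816 to 0.205 FPKM in visWAT and 1.02 to 2.11 FPKM in liver (difference -1.13, SE 0.15), and Ltbr was lower in visWAT by -0.57 (SE 0.09).

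Besides Ngfr, the 5 death domain receptors tested were each higher in visWAT, namely Tnfrsf21 (1.19, SE 0.31), Tnfrsf10b (0.90, SE 0.18), Tnfrsf1a (0.56, SE 0.11) and Fas (0.46, SE 0.14) beside Tnfrsf25, as were Tnfrsf22 (0.96, SE 0.14), Tnfsf10 (0.78, SE 0.20), Tnfsf12 (0.74, SE 0.16), Tnfrsf23 (0.68, SE 0.17) and Tnfrsf18 (0.66, SE 0.21). Limma adjusted p-values of the 13 ranged from 2.13e-06 to 0.0206. Without the visWAT of mice 182 and 183, 9 were higher and 4 lower (67.6% of genes called). Tnfrsf23 was no longer called and Tnfrsf19 was, at -1.69, being 1.58 to 3.23 FPKM in liver. Since both tissues came from the same mice, a fit with the mouse as a block was also made and called 12 members, 9 higher and 3 lower, and 61.8% of genes. Fas lost its call there (adjusted p = 0.0516). Of the 44 signalling genes, 11 were higher and 17 lower in visWAT, beside 31.5% and 34.0% of all genes (rescaled to equal totals, 17 and 3).

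Loss of Mlkl in adipocytes was not accompanied by a called difference in any member. Under HFD in visWAT, 27 members were tested and none was called by limma, edgeR or DESeq2, beside 0.0215%, 0.0215% and 1.15% of all 13963 genes. Unadjusted p-values under 0.05 were found for 1 member by limma, none by edgeR and 2 by DESeq2, and for 21.5% of all genes by limma. In all 27 members the genotypes overlapped, where 1.42% of all genes were higher and 1.59% lower without overlap. The members' median difference was -0.08 against -0.0007 for all genes. The member with the smallest p was Tnfrsf1b, at 21.6 to 27.2 FPKM in WT mice and 14.8, 23.2, 26.0, 9.72 and 9.35 FPKM in Mlkl Adi-KO mice 151, 152, 153, 156 and 157. Mice 152 and 153 lay within the WT range and the other 3 below it. Its difference was -0.66 (95% interval -1.24 to -0.08, limma adjusted p = 0.221, exact permutation p = 0.0794).

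Tnfrsf11a behaved alike in these mice, with 2.67, 3.97, 4.72, 1.22 and 1.04 FPKM against 3.24 to 4.95 FPKM in WT mice (difference -0.59, 95% interval -1.21 to 0.02, limma adjusted p = 0.239). Tnfsf13 followed (-0.25, 95% interval -0.51 to 0.02). The macrophage marker sum of the same Mlkl Adi-KO mice was 1242, 1892, 2004, 652 and 608 FPKM against 1550 to 2185 FPKM in WT mice, and none of the 8 markers was called. Mice 156 and 157 were the lowest in this sum and in both receptors, and its part in the members' values was not tested. The visWAT library of mouse 156 was also the one with Alb at 459.6 FPKM, and the part of this was not tested either.

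The TNF receptor and death ligand genes chosen for this comparison differed little between genotypes under HFD. Tnf was at 1.09 to 1.64 FPKM in WT and 0.456 to 1.64 FPKM in Mlkl Adi-KO mice (difference -0.08, 95% interval -0.45 to 0.28). Tnfrsf1a was at 67.7 to 79.8 and 69.1 to 84.7 FPKM (0.08, 95% interval -0.09 to 0.24) and Fas at 10.2 to 11.6 and 9.52 to 13.6 FPKM (0.10, 95% interval -0.08 to 0.28). For Tnfsf10 the interval was -0.17 to 0.36 and for Tnfrsf10b -0.10 to 0.20. Limma adjusted p-values of these 5 ranged from 0.429 to 0.761, which does not show that the genotypes are alike. Of the 44 signalling genes, Mlkl itself was called lower (-0.83, SE 0.07), which checks the deletion, and no other was called.

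**Figure D5:**
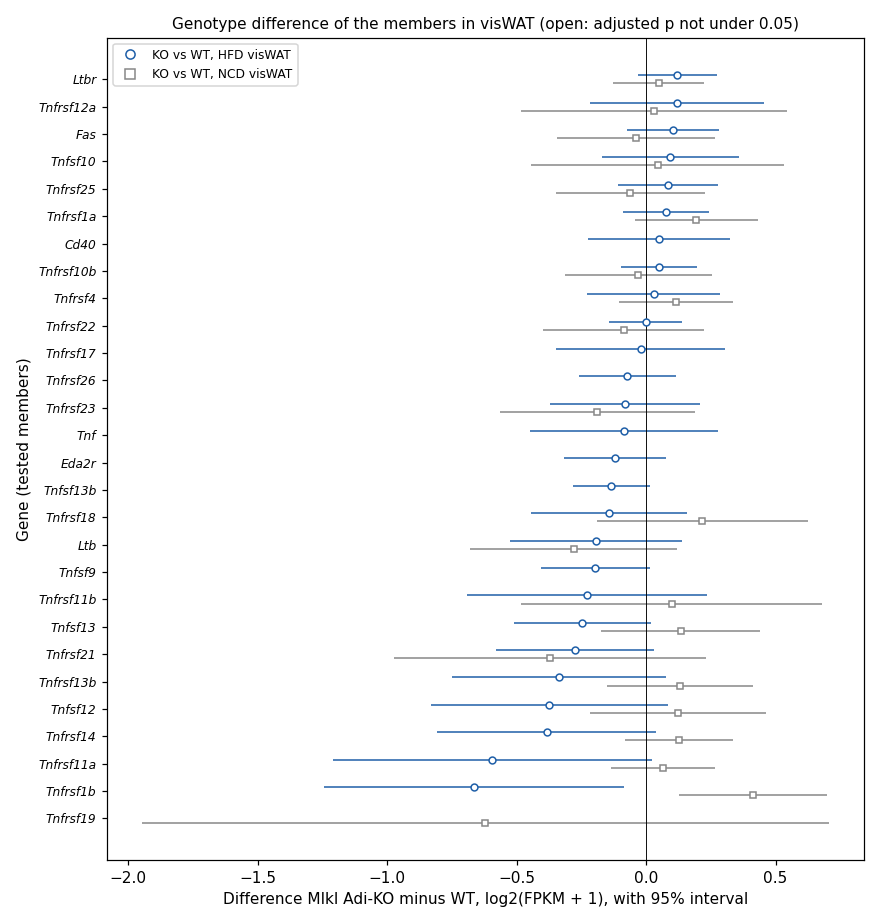
Mlkl Adi-KO minus WT difference on the log2(FPKM + 1) scale (x axis) with its 95% interval for each tested member (y axis) in visWAT under HFD (circles) and NCD (squares), all open because no adjusted p is under 0.05. Tnfrsf1b is the member whose interval leaves 0 on both diets, below 0 on HFD (-0.66) and above 0 on NCD (0.41), and the wide Tnfrsf19 interval on NCD rests on mouse 183.

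On NCD, 21 members were tested in visWAT and none was called by limma, edgeR or DESeq2, beside 0.00%, 0.00% and 0.0569% of 14063 genes. Limma and edgeR thus did not call Mlkl, the deleted gene, either. WT mouse 182, at 2.29 FPKM of Mlkl, lay within the Mlkl Adi-KO range of 1.96 to 2.49 FPKM. The absence of called members on NCD therefore does not show that the genotypes are alike. Unadjusted, 1 member was under 0.05 by limma, 2 by edgeR and 1 by DESeq2, and by limma 3.75% of all genes. All 21 overlapped, where 1.87% of genes were higher and 0.59% lower without overlap. Tnfrsf1b was at 4.31 to 6.24 FPKM in WT and 5.92 to 8.19 FPKM in Mlkl Adi-KO mice with an overlap (difference 0.41, 95% interval 0.13 to 0.70, limma adjusted p = 0.916, exact permutation p = 0.0571). Tnfrsf1a (0.19, 95% interval -0.04 to 0.43) and Ltb (-0.28, 95% interval -0.68 to 0.12) followed. Fas (-0.04), Tnfsf10 (0.04) and Tnfrsf10b (-0.03) differed by less than their standard errors. Without mice 182 and 183, again none of 20 members tested was called, beside 0.0215% of genes, and 1 was under 0.05 unadjusted. With 4 against 4 mice the smallest exact p is 0.0286.

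The genotype by diet term in visWAT, which asks whether the diet difference varied with genotype, was past the threshold in none of 24 members, by limma, edgeR or DESeq2 (0.00%, 0.00% and 0.134% of 14136 genes). Unadjusted, 3 members were under 0.05 by limma and 2 each by edgeR and DESeq2, and by limma these were Tnfrsf1b (-1.08, 95% interval -1.77 to -0.38, adjusted p = 0.325), Tnfsf13b (-0.25, adjusted p = 0.350) and Tnfrsf14, the LIGHT receptor HVEM (-0.51, adjusted p = 0.375). Unadjusted p-values under 0.05 were found for 13.2% of all genes. Rescaling moved the median of all genes to -0.45 here, with the library of mouse 183 in the WT NCD group. Without mice 182 and 183 the count was again 0 of 24, with 2 under 0.05 unadjusted.

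In liver, genotype gave no called member on either diet. Under HFD, 13 members were tested, with 0 called by limma, edgeR and DESeq2 beside 0.197%, 0.204% and 1.98% of 13215 genes, and 3, 2 and 2 under 0.05 unadjusted (12.6% of genes by limma). All 13 overlapped, where 1.38% of genes were higher and 1.24% lower without overlap. Tnfsf10 was at 1.14, 2.06, 1.44, 1.77 and 1.64 FPKM in WT and 1.93, 2.75, 1.74, 2.92 and 3.75 FPKM in Mlkl Adi-KO mice, which overlapped (difference 0.45, 95% interval 0.12 to 0.79, limma adjusted p = 0.281, exact permutation p = 0.0476). Tnfrsf12a (-0.18, 95% interval -0.33 to -0.03) and Tnfrsf19 (-0.36, 95% interval -0.69 to -0.04) were the other 2. Without the liver of mouse 152 again none was called, with Tnfsf10 at 0.43. On NCD, 14 were tested, with 0 called by each tool beside 0.00758%, 0.00758% and 0.159% of 13193 genes and 0 under 0.05 unadjusted (4.35% of genes by limma). All 14 overlapped, where 1.39% of genes were higher and 1.4% lower without overlap, and those with the smallest p were Tnfrsf19 (0.21), Tnfsf10 (0.09) and Tnfsf12 (0.12). The genotype by diet term in liver was past the threshold in none of 14 members (0.0151% of 13248 genes by limma, 0.00755% by edgeR and 0.476% by DESeq2), with 1 member under 0.05 unadjusted by each tool and 6.12% of genes by limma. By limma this was Tnfrsf19 (-0.57, adjusted p = 0.672), and Tnfsf10 (0.36) and Tnfrsf18 (-0.29) came next.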

How the data were processed

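Gene expression was measured by RNA-seq in visWAT and liver of the same 18 mice (36 libraries). According to the study's methods and processing notes, the authors aligned reads to mm39 and counted them per gene with featureCounts 1.5.0-p3, and deposited FPKM values per gene, beside counts. The annotation release, strandedness and the treatment of reads with several matches were not given in the sources used here. The deposited FPKM values contain a scaling between libraries, and whole reads were recovered from them for 100% of values within 0.01 reads. Of the per-sample columns, 72 were not used, and the authors' own fold changes and p-values were not used. Gene length and coordinates were taken from the deposited table.

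Groups followed the labels, with the mouse number as the replicate. Differences were tested with limma 3.58.1 (R 4.3.3) on log2(FPKM + 1), for genes with a mean of at least 0.5 FPKM over the libraries compared, with Benjamini-Hochberg adjustment over all genes. The 12 comparisons were HFD against NCD and Mlkl Adi-KO against WT in each tissue, genotype by diet, visWAT against liver and tissue by diet. Single members were also compared by exact permutation over mice. The fits were repeated with 0.1 as the pseudocount, without the filter, with a mean of at least 1 FPKM, with values rescaled to equal totals, with edgeR 4.0.16 and DESeq2 1.42.0 on the recovered reads, leaving out each library in turn or the WT NCD visWAT of mice 182 and 183, and with the mouse as a block. The scripts were tested on simulated data. The lowest chi-square per gene between replicates was 9.82, well above sampling noise, so each library was counted as 1 sample.

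Both tissues carry the mouse number, and the correlation of same-mouse deviations between tissues ranged from -0.05 to 0.22. The members, the 44 signalling genes, the marker lists (macrophage, fibroblast and progenitor, T cell, B cell, NK cell, endothelial, adipocyte, mesothelium, hepatocyte, Kupffer cell, and epididymis with seminal vesicle) and the rule for named genes were chosen with earlier results of these data known. The rule gave full statistics to called members (at most 8 per comparison by size), to Tnf, Tnfrsf1a, Tnfrsf1b, Fas, Tnfsf10 and Tnfrsf10b in the visWAT diet and genotype comparisons, and otherwise to the 3 members with the smallest p. Of the signalling genes, 1 is counted but not reported here by name. Promoter windows of 250 bases came from RefSeq.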

Additional observations from a re-analysis of the deposited data

Results flagged for a closer look

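Of 80 sets of values of named members, 4 had 1 mouse far from the rest of its group by Dixon's test, where chance gives about 1 in 20. Tnfrsf10b was at 0.699 FPKM in liver of WT NCD mouse 182, against 0.0392 to 0.122 FPKM in the others of that group. In visWAT of HFD Mlkl Adi-KO mice, Tnfrsf10b was at 1.92 FPKM in mouse 152 against 1.47 to 1.56 FPKM, and Tnfrsf12a was at 11.6 FPKM in mouse 156 against 15.4 to 16.3 FPKM. Tnfrsf19 was at 1.24 FPKM in liver of HFD Mlkl Adi-KO mouse 151 against 2.62 to 3.11 FPKM.

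For 11 members the diet difference varied between visWAT and liver of WT mice in the tissue by diet test. The terms were 2.28 for Tnfrsf1b, 1.64 for Tnfrsf11a, 1.53 for Tnfrsf12a, 1.18 for Tnfsf12, 1.04 for Tnfrsf13b, 0.97 for Tnfrsf11b, 0.81 for Tnfsf13, 0.50 for Tnfrsf23, 0.36 for Tnfrsf1a, -0.39 for Fas and -0.88 for Tnfrsf18. The edgeR fit did not call Tnfrsf13b (1.38), Tnfrsf11b (1.51), Tnfrsf1a (0.33) or Tnfrsf23 (0.62), and DESeq2 did not call Tnfrsf13b (1.39) or Tnfrsf23 (0.65). With the mouse as a block 8 of the 11 were called, without Tnfrsf11b, Tnfrsf1a and Fas (limma adjusted p = 0.0531, 0.0747 and 0.0936).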

How the results depend on the processing

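Of 1242 alternative values for 72 single-member results, 1169 kept the direction and the side of the threshold, 50 lost a call, 2 gained one and 21 changed sign, and 53 of the 72 results kept both throughout. The count of members called moved by over 1.5 times in 2 cases, to 16 for diet in WT visWAT without mice 182 and 183 and to 24 for visWAT against liver with no filter. Leaving out 1 library gave 10 to 12 called members for diet in WT visWAT, 8 to 11 in Mlkl Adi-KO visWAT, 2 to 4 in WT liver and 2 to 3 in Mlkl Adi-KO liver, 12 to 14 between tissues, 8 to 11 for tissue by diet, and 0 in each genotype and genotype by diet comparison. With the mouse as a replicate block, 12 members were called between tissues and 8 for tissue by diet, 7 positive and 1 negative. The block ended the tissue by diet calls of Tnfrsf11b (0.97, adjusted p = 0.0531), Tnfrsf1a (0.36, 0.0747) and Fas (-0.39, 0.0936). No sign change concerned a called value. With equal totals, Fas was 0.43 for diet in WT visWAT and 0.33 for genotype on NCD, Tnfrsf10b 0.24 for genotype on NCD and -0.022 on HFD, and Tnfrsf1a -0.030 for genotype on HFD. The first 3 of these values use the WT NCD visWAT group, in which equal totals lowered the library of mouse 183. The NCD genotype value of Tnfsf10 was -0.016 by edgeR and -0.023 by DESeq2. Without both mice 182 and 183, Tnfsf10 was -0.29 for diet in WT visWAT and -0.33 for genotype on NCD. Leaving out 1 library at a time, Fas ranged from -0.15 to 0.048 for diet in WT visWAT and from -0.16 to 0.044 for genotype on NCD, and Tnfsf10 from -0.055 to 0.25 and from -0.091 to 0.22. For genotype on HFD, Tnf ranged from -0.16 to 0.051 and Tnfsf10 from -0.0076 to 0.17, and for genotype on NCD Tnfrsf10b ranged from -0.13 to 0.043. The causes were not tested. Members near 0.5 FPKM rest on few reads, so that small differences in them were not detectable.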
